A study of Mus musculus with 32 samples.

Results

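The Trim genes encode tripartite motif (TRIM) proteins, a family of mostly RING-type ubiquitin ligases, and are described here across microglia and macrophages sorted from mouse brain with and without a glioma. All rows of the deposited gene table whose symbol is Trim followed by a digit were taken as members, which gave 54 of the 17586 genes. RNA was sequenced from 32 libraries of 4 populations, 8 libraries each. Chimeras with GL-261 cells implanted in the brain, a glioma line of mice used in immunocompetent hosts, gave 3 of them: differentiated macrophages of the tumour, undifferentiated macrophages of the tumour, and tumour microglia. Normal microglia were taken from tumour-free animals. In every population, recipients of 4 libraries were of strain C57BL/6J (WT) and those of 4 of strain Pep3/CD45.1. Chimeras were labelled by graft direction, PEP-3 into WT or WT into PEP-3, and normal microglia carried a strain and no graft. The labels name no drug or other treatment, and GL-261 is 1 line. The ages of the mice, the sorting gates, the numbers of animals behind a library and the share of the hosts' own blood cells left in the chimeras are not given in the sources used here.

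TRIM proteins share a RING finger, B-box zinc fingers and a coiled coil, and their carboxy-terminal domain usually chooses the target. Many of those with a PRY-SPRY domain are interferon-stimulated and act in antiviral defence, either by binding viral or antibody-coated particles or by placing ubiquitin chains on sensors and adaptors of the RIG-I, cGAS-STING and Toll-like receptor pathways. Others work far from immunity: the TIF1 group (Trim24, Trim28, Trim33, Trim66) regulates chromatin, the NHL-repeat members bind RNA or cytoskeletal cargo, Trim9 and Trim67 act at neuronal microtubules and membranes, Trim63 is a muscle ligase, and several are chiefly transcribed in testis or early embryos.

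The deposited values were signed scores, centred on 0 for every gene, so no level of one gene can be set against that of another, and differences are given in units of the deposited scale rather than as folds. Sequencing depth is unknown. Differences are fitted means of 8 libraries against 8, averaged over recipient strain, with ± 1 standard error, from limma on all genes, and calls were made where the adjusted p was under 0.05. "Rose" and "fell" are used for called genes. Whether each library is a separate animal is not stated, and p-values cover just the spread among libraries, which may be technical. In 9 of the 32 libraries under 50% of the library's own variation was left in the table, so those values are partly set by the other libraries. All 8 of 8 microglia markers fell and all 8 of 8 monocyte-derived macrophage markers rose in each macrophage population against tumour microglia. In sorted bulk RNA, fewer cells of a type and less RNA per cell cannot be told apart.

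Several members lie beside each other, and their shared sequence bears on what a row counts. By RefSeq positions, 14 rows fell on chromosome 7, most of them in the run of antiviral genes from Trim6 to Trim30d, 5 on chromosome 17, and Trim75, Trim60 and Trim61 were neighbours on chromosome 8. The rows Trim12 and Trim12a, Trim30 and Trim30a, and Trim34 and Trim34a each name a single RefSeq gene under an older and a newer symbol, and they did not move together, so reads of these genes may have been split between rows. Of the 50-base words of GENCODE transcripts, 39.8% of those of Trim34a also occurred in its neighbours, as did 29.5% for Trim5, 5.98% for Trim30a and 7.49% for Trim30d. Trim43b shared 46.8% and Trim43c 42.1% with the other Trim43 copies. Values of these genes are uncertain to the extent that the counting divided shared reads between copies.

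The promoter sequences of the antiviral members are shown because genes of this group differed between tumour and normal microglia, and because interferon-activated STAT and IRF factors bind a known element, a pair of GAAA words with free bases between them. The motif searched was GAAA, any 2 bases, then GAAA again, on both strands in the RefSeq windows from 250 bases before to 50 after each gene's start (GRCm38.p6). It was found in 8 of the 40 Trim genes that had a window, 20%, and in 1079 of all 27025 genes with one, 3.99%. These 8 were Trim2, Trim5, Trim12a, Trim21, Trim26, Trim30a, Trim30d and Trim34a. A match is a run of letters and not a shown binding site. The windows, 5′ to 3′ on the strand of the gene with the motif in capitals (read as TTTC, 2 bases, TTTC where it lies on the other strand), follow for the 6 that lie on chromosome 7. Positions count from 1 at the gene's start and from -1 upstream of it.
Trim30a, chr7:104465194-104465293, minus strand, -100 to -1: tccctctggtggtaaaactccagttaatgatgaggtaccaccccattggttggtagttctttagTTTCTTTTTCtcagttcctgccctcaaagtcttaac
Trim30d, chr7:104507850-104507949, minus strand, -100 to -1: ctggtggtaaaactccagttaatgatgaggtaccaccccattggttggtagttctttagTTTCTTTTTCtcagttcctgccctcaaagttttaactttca
Trim5, chr7:104288107-104288206, minus strand, -100 to -1: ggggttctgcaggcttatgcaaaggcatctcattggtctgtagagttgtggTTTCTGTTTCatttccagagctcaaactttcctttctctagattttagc
Trim12a, chr7:104315463-104315492, minus strand, from position 4: gttgtggTTTCTGTTTCatttccagagctc
Trim34a, chr7:104244460-104244489, plus strand, from position 4: tttggagTTTCAGTTTCttttctctgcagt
Trim21, chr7:102565447-102565476, minus strand, from position 7: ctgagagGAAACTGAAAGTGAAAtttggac
The Trim30a and Trim30d stretches shared an unbroken run of 89 bases that holds the motif, and the 30 bases of Trim12a occurred unchanged in the Trim5 stretch. In Trim21 the capitals cover 2 overlapping matches.

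Against normal microglia, 4 members rose in tumour microglia and 5 fell. Over all genes 4.66% were called higher and 12% lower, so the 4 and 5 of 54 members, 7.41% and 9.26%, were near the background. The members that rose were the antiviral genes Trim34a and Trim30a, the transmembrane TRIM protein gene Trim59 and the erythroid gene Trim10. Those that fell were Trim45, Trim60, Trim61, Trim39 and Trim9, none of them in the antiviral group. The median difference of the 54 members was -0.136, and that of all genes was -0.245.

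Trim34a, a Trim5 relative of the antiviral cluster whose promoter is shown above, had scores from -0.0855 to 1.68 with a median of 0.663 in tumour microglia and from -2.56 to 0.536 with a median of -1.0 in normal microglia. All 8 tumour libraries stood above the normal median, and the ranges overlapped. The fitted difference was 1.96 ± 0.43 (adjusted p = 0.00404). Trim30a, which in mice restrains Toll-like receptor signalling by removing TAB adaptors, ran from -0.402 to 1.22 (median 0.521) in tumour microglia and from -1.42 to -0.272 (median -0.852) in normal microglia. The ranges overlapped only between -0.402 and -0.272, and it rose by 1.34 ± 0.30 (adjusted p = 0.00451). The rows with the older symbols gave other values, -0.02 ± 0.35 for Trim34 and -0.95 ± 0.48 for Trim30, neither of them called.

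No other antiviral member was called. Trim30d, the neighbour of Trim30a, had a difference of 0.92 ± 0.34 (adjusted p = 0.0617) and was called higher once the median of each library was subtracted, with 1.17. Trim21, the cytosolic antibody receptor, ran from 0.149 to 2.11 (median 0.648) in tumour microglia and from -1.02 to 1.66 (median -0.246) in normal microglia. All 8 tumour libraries were above the normal median, but normal library 2, at 1.66, lay far above the other normal libraries, and the difference of 0.84 ± 0.36 did not pass (adjusted p = 0.108). Trim25, the ligase that activates RIG-I, ran from -0.954 to 0.785 (median -0.136) in tumour microglia and from -1.44 to -0.0211 (median -0.966) in normal microglia, a difference of 0.84 ± 0.40 that did not pass (adjusted p = 0.148). Of the 8 genes with the promoter motif, Trim34a and Trim30a were the 2 called, where 4.66% of all genes were called higher and 12% lower. The differences of the rest ran through 0.92 for Trim30d, 0.84 for Trim21, 0.70 for Trim5, 0.15 for Trim12a and -0.23 for Trim26 to -1.0 for Trim2. Trim5, Trim21 and Trim30d fell in differentiated macrophages against tumour microglia, as given further on. Any part of the motif in these differences was not tested. In all, 2 of 14 measured antiviral members rose and 0 fell, with a median difference of 0.214.

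Trim59 ran from -0.922 to 1.63 (median 0.264) in tumour microglia and from -3.18 to 0.775 (median -0.994) in normal microglia, and rose by 1.49 ± 0.47 (adjusted p = 0.034). Trim10, required for red cell differentiation, was the only member whose libraries did not overlap: it ran from -0.55 to 0.275 (median -0.248) in tumour microglia and from -2.09 to -0.969 (median -1.64) in normal microglia. It rose by 1.35 ± 0.32 (adjusted p = 0.0071). Such a lack of overlap in the higher direction was seen for 1.01% of all genes, and in the lower direction, where no member showed it, for 0.762%. Proliferation genes were also higher, 3 of 4 called, with their mean score from -0.623 to 1.78 in tumour microglia and from -2.01 to -0.352 in normal microglia, and their part in these results was not tested.

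Among the members that fell, Trim45, a TRIM protein with a filamin-type domain, ran from -2.50 to -0.302 (median -1.17) in tumour microglia and from -2.09 to 2.10 (median 0.146) in normal microglia, and fell by 1.64 ± 0.48 (adjusted p = 0.0233). Trim60 ran from -1.95 to -0.194 (median -1.30) in tumour microglia and from -0.791 to 0.856 (median 0.11) in normal microglia, and fell by 1.5 ± 0.35 (adjusted p = 0.00618). In both, all 8 tumour libraries lay below the normal median, while the ranges overlapped. Trim61, the neighbour of Trim60, fell by 1.41 ± 0.46, Trim39, a ligase acting on cell cycle and apoptosis regulators, by 1.37 ± 0.35, and Trim9, a brain ligase of the netrin pathway, by 1.33 ± 0.41. Trim28, the corepressor that KRAB zinc finger proteins recruit to silence retroelements, ran from -0.291 to 1.29 (median 0.119) in tumour microglia and from -0.337 to 2.16 (median 1.03) in normal microglia. Its difference of -0.81 ± 0.36 did not pass (adjusted p = 0.121).

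**Figure D1:**
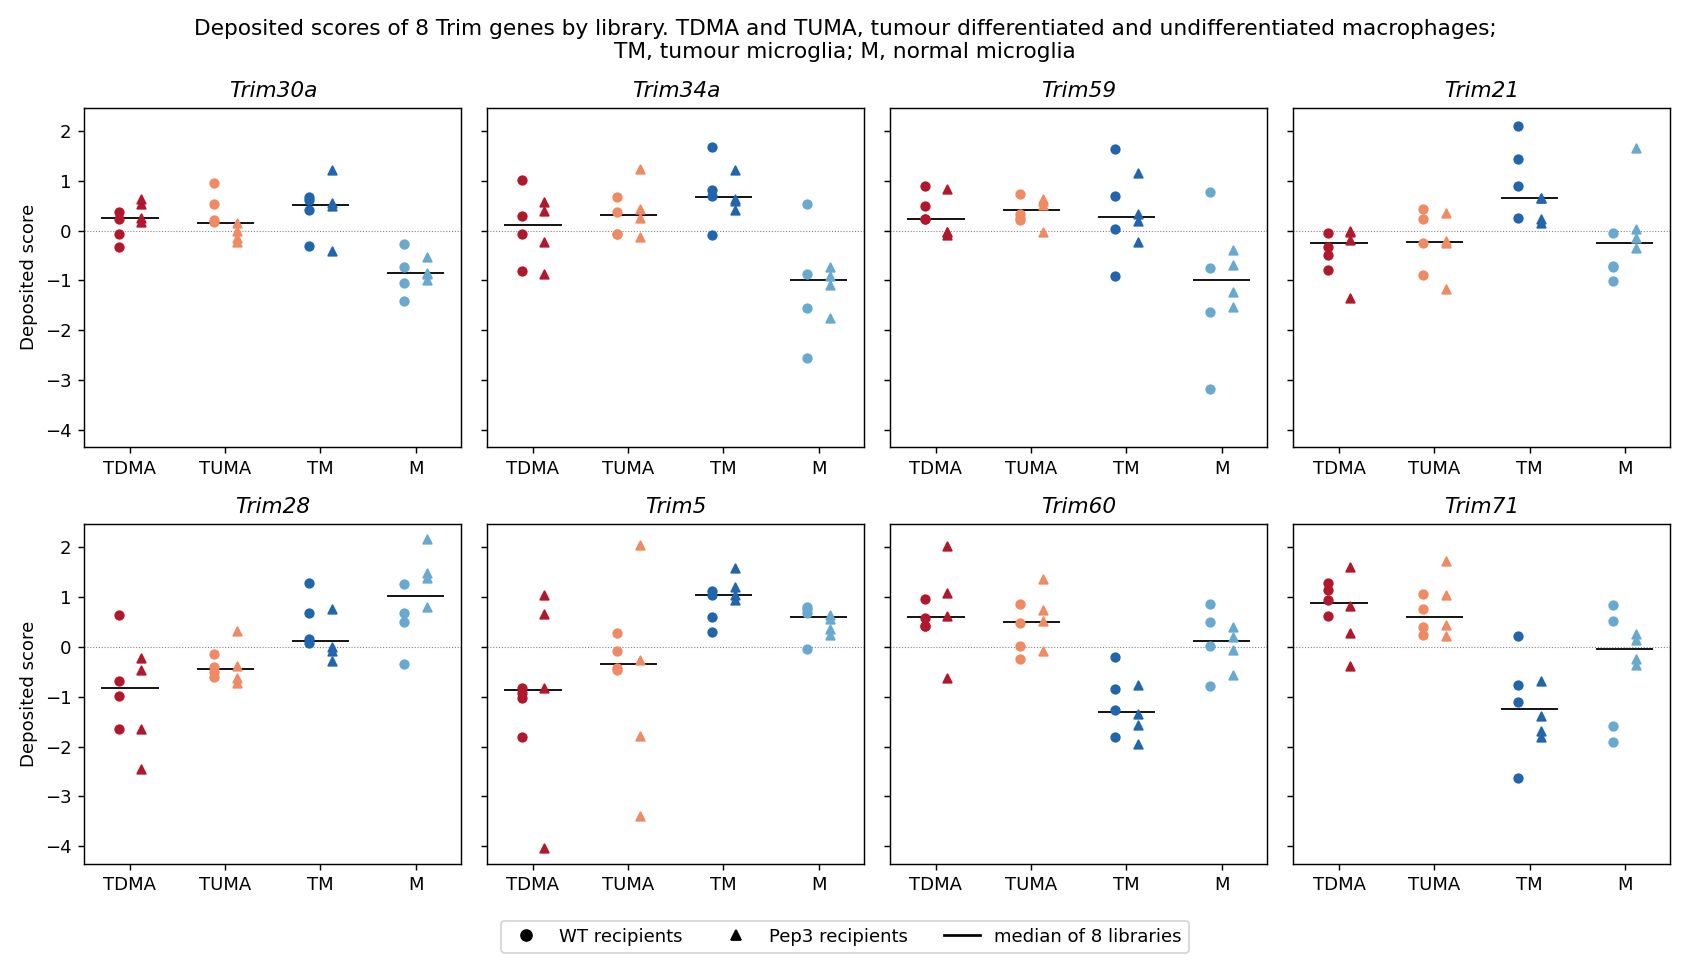
Deposited scores of 8 Trim genes, with populations on the horizontal axis, 1 point per library (circles WT, triangles Pep3 recipients) and a bar at the median of 8 libraries. Trim30a, Trim34a and Trim59 had their lowest medians in normal microglia, Trim21 its highest in tumour microglia (0.648), and Trim60 and Trim71 their lowest in tumour microglia.

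Each of these 9 calls was lost without at least 1 library. For Trim34a this happened on leaving out normal library 1 (1.82) or 10 (1.97), and for Trim30a on leaving out 1 (1.25), 10 (1.17) or 18 (1.26). Trim10 was not called without normal library 1 (1.11), 18 (1.38) or 26 (0.749), and Trim60 not without 10 (-1.60) or 18 (-1.25). Trim45 and Trim39 lost their calls without normal library 1, 10 or 18 or tumour microglia library 27, with differences from -1.89 to -0.696 and from -1.37 to -0.78. The calls of Trim59, Trim61 and Trim9 were lost without any 1 of 10, 12 and 9 libraries, with differences from 0.987 to 2.48, from -1.86 to -0.94 and from -1.61 to -1.05. The counts of members that rose and fell were 0 and 1 without normal library 1, 1 and 1 without 10, and 2 and 0 without 18. They were 2 higher without normal library 26, 8 lower without 17, 1 lower without tumour microglia library 27 and 3 lower without 6. Calls over all genes dropped as well, from 820 higher and 2116 lower in the full fit. In both directions together 171 were left without normal library 1, 786 without 10, 675 without 18 and 742 without tumour microglia library 27. The loss of calls was thus not particular to the Trim genes. In WT recipients alone the fitted difference of Trim30a was -0.0948, and in Pep3 recipients alone that of Trim10 was -0.493. Both fits had 3 residual degrees of freedom, and the deposited scores ran the other way. In WT mice Trim30a ran from -0.310 to 0.663 in tumour microglia and from -1.42 to -0.272 in normal microglia. In Pep3 mice Trim10 ran from -0.550 to 0.275 and from -2.09 to -0.969. Normal libraries came from experiments 1 and 2 and tumour libraries from 3 and 4, and the tumour hosts were grafted, so experiment, grafting and tumour cannot be told apart.

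Both macrophage populations were set against tumour microglia, which they share as control. In differentiated macrophages 21 members rose and 7 fell, where 37% of all genes rose and 6.35% fell. In undifferentiated macrophages 17 rose and 4 fell, where 36.7% of all genes rose and 5.19% fell. Shares of members that rose, 38.9% and 31.5%, were thus close to those of all genes, and 13% and 7.41% of members fell. The members' median difference was 0.392 in differentiated macrophages against 0.652 for all genes, and 0.614 in undifferentiated macrophages against 0.715.

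**Figure D2:**
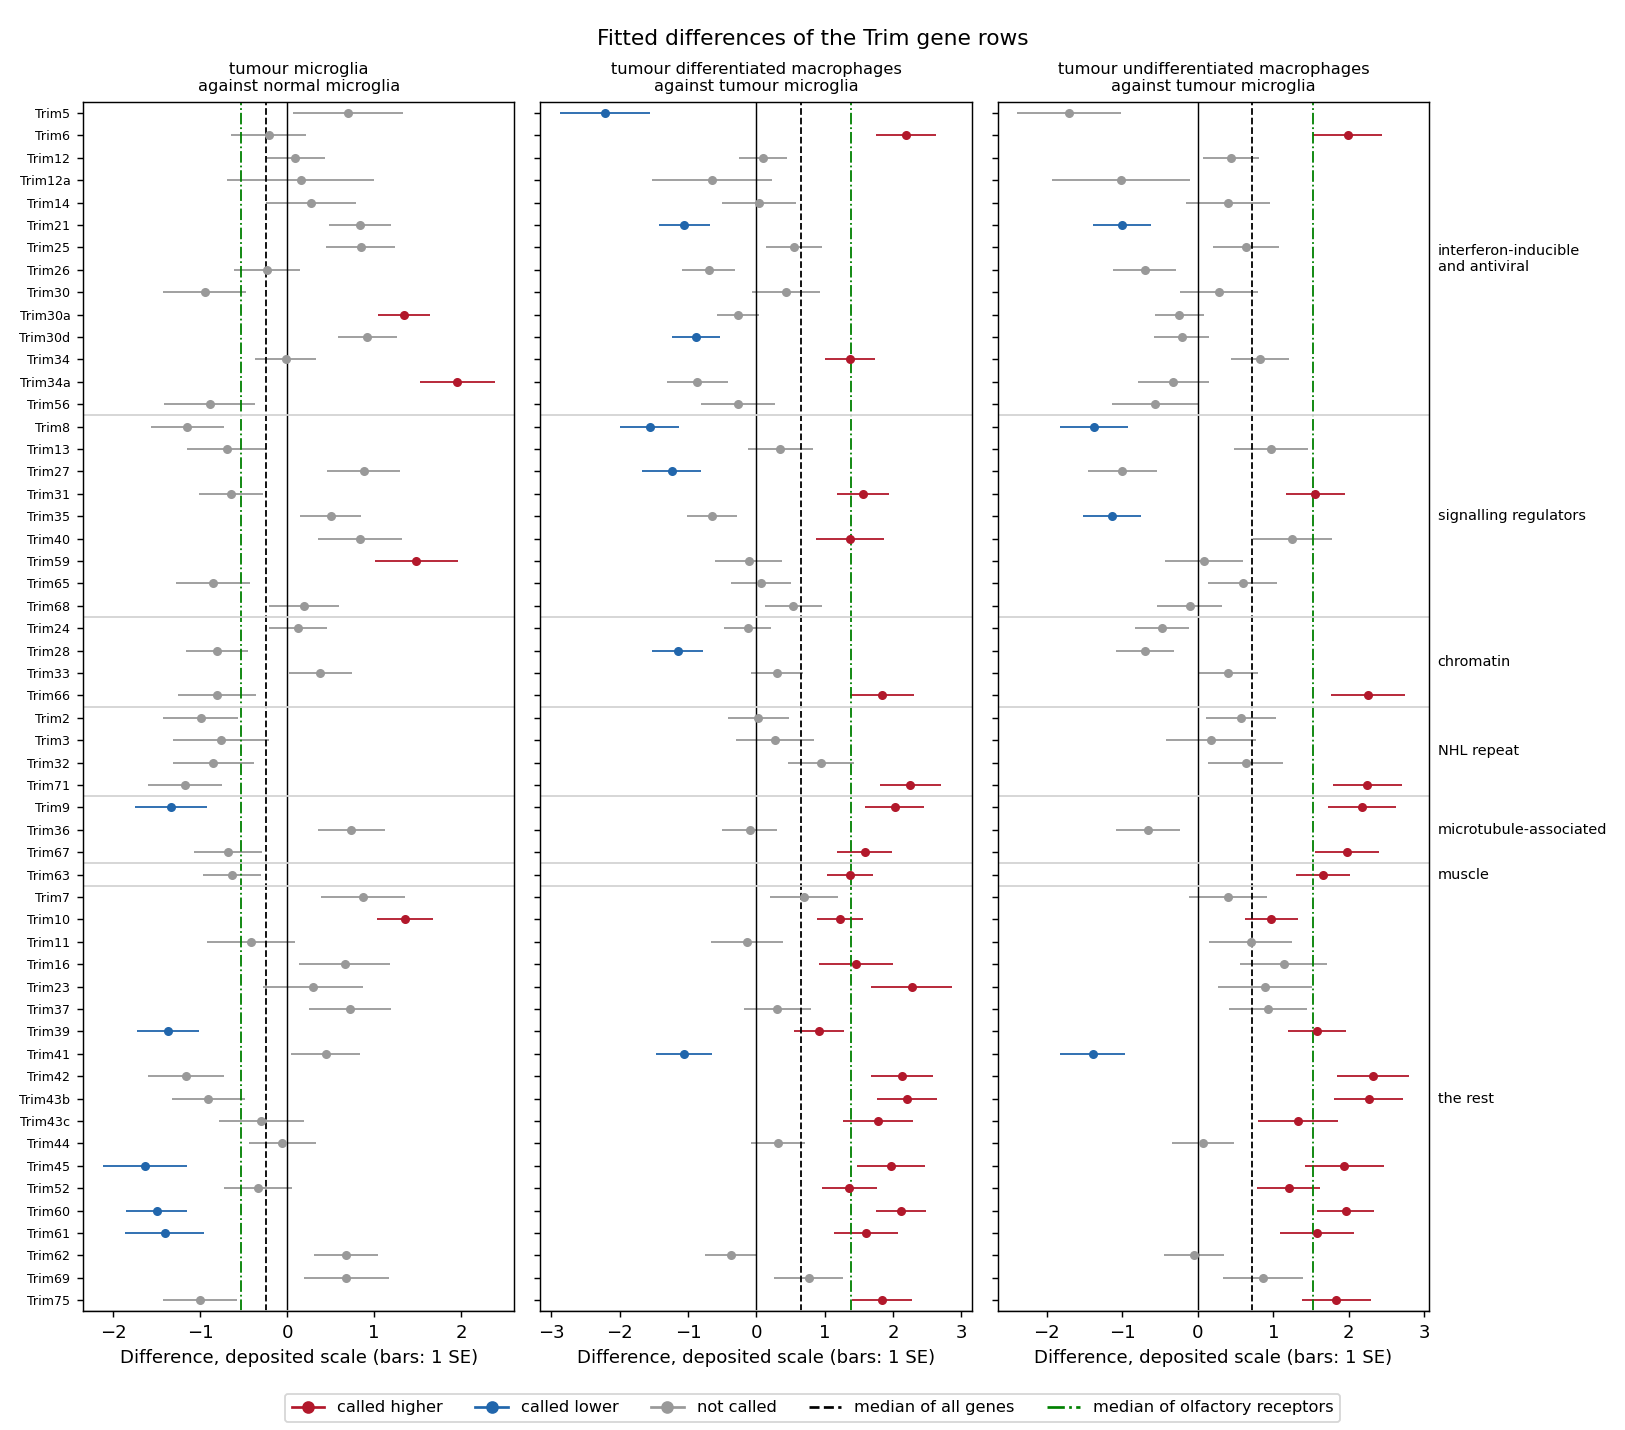
Fitted difference of each of the 54 Trim rows in 3 comparisons on the deposited scale, with bars of 1 standard error, red for called higher, blue for called lower and grey for not called, grouped by role. The dashed line marks the median of all genes (-0.245, 0.652 and 0.715) and the green line that of 544 olfactory receptor genes (-0.529, 1.38 and 1.53).

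The members that fell in macrophages came from the antiviral, signalling and chromatin groups and the ungrouped rest. Trim21 was below every tumour microglia library in every differentiated macrophage library: it ran from -1.36 to -0.0116 (median -0.255) in differentiated macrophages and from -1.18 to 0.429 (median -0.23) in undifferentiated macrophages, against 0.149 to 2.11 (median 0.648) in tumour microglia. It fell by 1.05 ± 0.37 in differentiated macrophages (adjusted p = 0.0253) and by 1.00 ± 0.39 in undifferentiated macrophages (adjusted p = 0.0419). Trim8, a ligase of STAT and NF-kappaB signalling, ran from -1.47 to -0.292 (median -1.36) in differentiated and from -2.81 to 0.128 (median -0.674) in undifferentiated macrophages, against -0.0226 to 1.21 (median 0.349) in tumour microglia. It fell by 1.56 ± 0.43 (adjusted p = 0.0057) in differentiated macrophages, with no overlap, and by 1.38 ± 0.45 (adjusted p = 0.0175) in undifferentiated macrophages. Lack of overlap in the lower direction was seen for 1.31% of all genes in differentiated macrophages.

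Trim28 ran from -2.45 to 0.635 (median -0.832) in differentiated macrophages, from -0.728 to 0.312 (median -0.452) in undifferentiated macrophages and from -0.291 to 1.29 (median 0.119) in tumour microglia. It fell by 1.15 ± 0.37 in differentiated macrophages (adjusted p = 0.0152), and its difference of -0.70 ± 0.39 in undifferentiated macrophages did not pass (adjusted p = 0.154). Trim5, named for the capsid-binding restriction factor of primates, ran from -4.04 to 1.04 (median -0.87) in differentiated and from -3.40 to 2.04 (median -0.338) in undifferentiated macrophages, against 0.301 to 1.58 (median 1.03) in tumour microglia. It fell by 2.21 ± 0.66 in differentiated macrophages (adjusted p = 0.0095), and its difference of -1.70 ± 0.69 in undifferentiated macrophages missed the threshold (adjusted p = 0.0516). Trim41, a ligase that binds protein kinase C, fell by 1.06 ± 0.41 in differentiated and by 1.39 ± 0.43 in undifferentiated macrophages. Trim27, the RET finger protein that also restrains innate signalling, fell by 1.24 ± 0.44 and Trim30d by 0.88 ± 0.35 in differentiated macrophages. Trim35, a ligase first found in blood cell lineages, fell by 1.14 ± 0.38 in undifferentiated macrophages.

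The 2 antiviral genes that had risen in tumour microglia against normal microglia were not called between macrophages and tumour microglia. Trim30a ran from -0.325 to 0.64 (median 0.244) in differentiated and from -0.223 to 0.957 (median 0.157) in undifferentiated macrophages, with differences of -0.27 ± 0.31 and -0.24 ± 0.33 from tumour microglia. Trim34a ran from -0.882 to 1.01 (median 0.117) in differentiated and from -0.139 to 1.24 (median 0.31) in undifferentiated macrophages, with differences of -0.87 ± 0.45 and -0.32 ± 0.47. Trim25 ran from -0.0126 to 1.53 (median 0.457) in differentiated and from -0.447 to 1.49 (median 0.357) in undifferentiated macrophages, and Trim59 from -0.0814 to 0.897 (median 0.231) and from -0.0264 to 0.739 (median 0.419). Neither was called against tumour microglia in either population. Of the 14 antiviral members, 2 rose and 3 fell in differentiated macrophages and 1 rose and 1 fell in undifferentiated macrophages, and the median differences were -0.266 and -0.226. Over all genes on this scale the shares were the 37% higher and 6.35% lower, and 36.7% and 5.19%, given above. Trim34, 1 of the 2 that rose in differentiated macrophages, names the same RefSeq gene as Trim34a, whose difference there was below 0. With medians subtracted 1 of the 14 rose and 6 fell in differentiated macrophages, where 19.8% and 19.2% of all genes did. In undifferentiated macrophages 1 rose and 5 fell, where 16.7% and 16.3% of all genes did. With the mean of the olfactory receptor genes subtracted, as described further on, 0 rose and 9 fell, and 0 rose and 8 fell. The shares of all genes were then 3.85% higher and 38.6% lower, and 2.66% and 36.8%.

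The members that rose in macrophages are given next, with those known from neurons, muscle, testis or the early embryo first. Of 3 measured microtubule-associated members 2 rose in each population, as did 1 of 4 with NHL repeats, 1 of 4 of the chromatin group and the single muscle member. These groups are small, and over all genes 37% rose in differentiated and 36.7% in undifferentiated macrophages. Trim71, the LIN-41 RNA-binding protein of pluripotent cells, ran from -0.387 to 1.61 (median 0.882) in differentiated and from 0.211 to 1.72 (median 0.603) in undifferentiated macrophages, against -2.64 to 0.209 (median -1.24) in tumour microglia. It rose by 2.26 ± 0.44 (adjusted p = 0.000366) and by 2.25 ± 0.46 (adjusted p = 0.000652). Undifferentiated macrophage and tumour microglia libraries did not overlap. Trim43b, of a group transcribed in preimplantation embryos, ran from -0.223 to 2.25 (median 0.628) in differentiated and from -0.488 to 1.60 (median 0.971) in undifferentiated macrophages, against -2.61 to 0.534 (median -1.30) in tumour microglia. It rose by 2.21 ± 0.44 and 2.26 ± 0.46, and its copy Trim43c by 1.78 ± 0.51 and 1.33 ± 0.53. Trim42 ran from -0.758 to 1.76 (median 0.822) in differentiated and from -0.205 to 1.52 (median 0.842) in undifferentiated macrophages, against -2.35 to 0.409 (median -1.22) in tumour microglia, and rose by 2.13 ± 0.46 and 2.33 ± 0.48. For both genes each macrophage library lay above the tumour microglia median.

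Trim66, the testis member of the chromatin group, ran from -0.41 to 1.70 (median 0.825) in differentiated and from 0.21 to 1.82 (median 0.718) in undifferentiated macrophages, against -2.48 to 0.683 (median -0.973) in tumour microglia, and rose by 1.84 ± 0.47 and 2.26 ± 0.49. The neighbours Trim60, Trim61 and Trim75 on chromosome 8 all rose, by 2.12 ± 0.36, 1.60 ± 0.47 and 1.84 ± 0.44 in differentiated and by 1.96 ± 0.38, 1.58 ± 0.49 and 1.83 ± 0.46 in undifferentiated macrophages. Trim60 ran from -0.631 to 2.03 (median 0.598) in differentiated and from -0.24 to 1.37 (median 0.495) in undifferentiated macrophages, against -1.95 to -0.194 (median -1.30) in tumour microglia. Of the neuronal members, Trim9 rose by 2.02 ± 0.43 and 2.18 ± 0.45, and its paralogue Trim67 by 1.58 ± 0.40 and 1.97 ± 0.42. The muscle ligase Trim63, whose targets are sarcomere proteins, rose by 1.37 ± 0.34 and 1.66 ± 0.36.

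Trim45 ran from -0.271 to 1.68 (median 0.263) in differentiated and from -0.174 to 1.11 (median 0.53) in undifferentiated macrophages, against -2.50 to -0.302 (median -1.17) in tumour microglia, and rose by 1.97 ± 0.50 and 1.94 ± 0.52. Neither macrophage population overlapped tumour microglia for this gene. Trim6, a maker of free ubiquitin chains in the interferon pathway of human cells, rose by 2.19 ± 0.44 and 1.98 ± 0.46. The MAVS ligase Trim31 rose by 1.56 ± 0.38 in each population, Trim10 by 1.23 ± 0.33 and 0.97 ± 0.35, Trim39 by 0.92 ± 0.37 and 1.58 ± 0.38, and Trim52 by 1.36 ± 0.40 and 1.20 ± 0.42. In differentiated macrophages alone the call was also made for Trim23, Trim16, Trim34 and Trim40, and the difference between the macrophage populations, given further on, was not called for any of them. Trim23, a TRIM protein with an ARF-type GTPase domain, ran from -0.982 to 4.02 (median 0.864) in differentiated macrophages, against -1.64 to 1.48 (median -0.677) in tumour microglia, and rose by 2.27 ± 0.60 (adjusted p = 0.00385). In undifferentiated macrophages it ran from -1.70 to 1.99 (median 0.703). Trim16, which marks damaged lysosomes, rose by 1.46 ± 0.55, Trim34 by 1.38 ± 0.37 and the gut member Trim40 by 1.37 ± 0.50. The row Trim34a, which names the same RefSeq gene as Trim34, had a difference of -0.87 in differentiated macrophages and was not called. These rows thus ran in opposite directions, and the rise of Trim34 cannot be taken as a rise of the gene.

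Libraries of differentiated macrophages did not overlap those of tumour microglia for 5 of the members that rose, where 7.09% of all genes showed this, and libraries of undifferentiated macrophages for 3, where 6.77% did. Within experiment 3 and within experiment 4, each of the 21 and 17 members that rose and the 7 and 4 that fell had deposited means differing in the same direction. Experiment 3 held macrophages of WT recipients and tumour microglia of Pep3 recipients, and experiment 4 the reverse, so within an experiment population cannot be told apart from recipient strain and graft direction. In WT recipients alone, fitted differences were below 0 for Trim39, Trim40, Trim43b and Trim52 in differentiated macrophages (-0.39, -1.29, -0.704 and -0.672) and for Trim42, Trim43b, Trim45, Trim52, Trim60 and Trim75 in undifferentiated macrophages (from -2.11 for Trim43b to -0.0292 for Trim45). These fits had 3 residual degrees of freedom, and the deposited means of these genes in WT recipients ran the other way. For Trim43b the WT scores ran from 0.916 to 1.38 in undifferentiated macrophages and from -2.61 to 0.535 in tumour microglia. Without any 1 of the 32 libraries, the calls of Trim6, Trim9, Trim31, Trim42, Trim43b, Trim60, Trim71 and Trim75 held in both comparisons, and in undifferentiated macrophages so did those of Trim39, Trim63, Trim66 and Trim67. Among the other higher calls, several moved by over 1.5 times without 1 library. In differentiated macrophages the call of Trim39 was lost without any 1 of 23 libraries, with the difference down to 0.307 without tumour microglia library 27, and at 0.64 without undifferentiated library 8. That of Trim43c was lost without 4 libraries, at 0.915 without tumour microglia library 27 and 1.17 without differentiated library 31, and that of Trim52 without differentiated library 28 (0.718). Trim23 was lost without undifferentiated library 29 (1.37), Trim40 without undifferentiated library 29 (0.91), and Trim61 without undifferentiated library 8 (0.918). In undifferentiated macrophages the call of Trim43c was lost without any 1 of 23 libraries, at 0.424 without differentiated library 31 and 0.541 without tumour microglia library 27. Without differentiated library 31 Trim45 was at 0.841 and Trim61 at 0.837, and without undifferentiated library 29 Trim10 was at 0.577, none of them called. None of the lower calls held without every single library. In differentiated macrophages the call of Trim8 was lost without differentiated library 28 (-1.24), that of Trim28 without differentiated library 28 (-0.729) or undifferentiated library 8 (-0.851), and that of Trim5 without differentiated library 7 (-1.37) or undifferentiated library 8 (-1.83). That of Trim41 was lost without any 1 of 14 libraries, at -0.686 without tumour microglia library 27. The calls of Trim21 were lost without any 1 of 8 libraries in differentiated and any 1 of 16 in undifferentiated macrophages, with differences from -1.22 to -0.763 and from -1.10 to -0.818. Without the 9 libraries that kept under 50% of their own variation, limma called 0 members in all 3 comparisons (6 residual degrees of freedom), with 5 members at an unadjusted p below 0.05 in tumour against normal microglia, 8 in differentiated and 11 in undifferentiated macrophages against tumour microglia. When the terms for directions without variation were dropped too, 0 members were called between tumour and normal microglia, 13 rose and 4 fell in differentiated macrophages, and 13 rose and 3 fell in undifferentiated macrophages.

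Chemosensory receptor families, which are not typical of myeloid cells, were followed beside the members. Of 544 olfactory receptor genes, which are transcribed in the nose, 372 rose and 0 fell in differentiated macrophages (median difference 1.38), and 375 rose and 0 fell in undifferentiated macrophages (median 1.53). In tumour microglia against normal microglia 1 rose and 59 fell (median -0.529). Of 230 vomeronasal receptor genes, 176 and 175 rose in the macrophage populations, and 69 fell in tumour microglia against normal microglia. With medians subtracted, 132 and 118 olfactory receptors and 108 and 97 vomeronasal receptors rose in differentiated and undifferentiated macrophages, where 37% and 36.7% of all genes rose on the deposited scale and 19.8% and 16.7% with medians subtracted. The mean score of the olfactory receptors ran from -0.0956 to 1.17 in differentiated macrophages, from -0.337 to 1.01 in undifferentiated macrophages, from -1.49 to -0.105 in tumour microglia and from -0.784 to 0.104 in normal microglia. The part of whatever moved these receptors in the Trim differences was not tested.

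The direction of many members depended on the scaling. With the median of each library subtracted, 10 members rose and 12 fell in differentiated macrophages, where 19.8% and 19.2% of all genes did, and 9 rose and 12 fell in undifferentiated macrophages, where 16.7% and 16.3% did. With the mean of the olfactory receptors subtracted instead, a scaling added after the data had been seen, 0 rose and 23 fell in differentiated and 0 rose and 20 fell in undifferentiated macrophages, against 3.85% and 38.6%, and 2.66% and 36.8%, of all genes. None of the members that rose as deposited was called higher under all 3 scalings. The 7 and 4 members that fell were called lower under each of the 3. In tumour microglia against normal microglia, the 4 members that rose, Trim10, Trim30a, Trim34a and Trim59, were called higher under each of the 3, with 5 members higher and 3 lower after subtracting medians (7.72% and 7.6% of all genes) and 9 higher and 0 lower after subtracting the receptor mean (11% and 2.96%). None of the 5 lower calls held under all 3. Each subtraction moved all members by nearly the same amount. From the deposited scale to medians and receptor mean, the members' median went from 0.392 to -0.274 and -1.03 in differentiated macrophages. It went from 0.614 to -0.107 and -0.899 in undifferentiated macrophages, and from -0.136 to 0.109 and 0.4 in tumour against normal microglia. Which calls held thus depended on their direction, and holding under all 3 is no separate check on single genes.

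**Figure D3:**
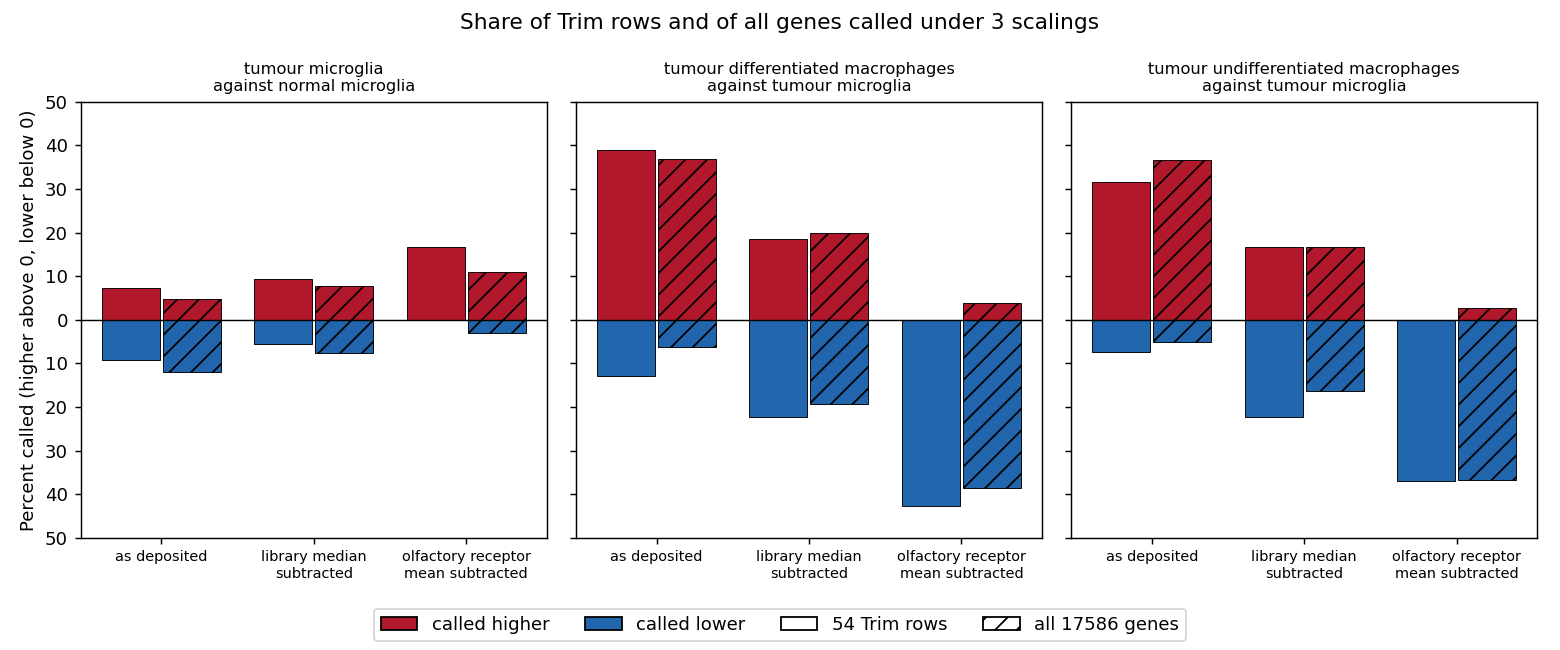
Percent of the 54 Trim rows (plain bars) and of all 17586 genes (hatched bars) called higher (red, above 0) or lower (blue, below 0) in 3 comparisons, under the deposited scale, with library medians subtracted and with the mean of the olfactory receptors subtracted. In the macrophage comparisons 38.9% and 31.5% of members were called higher on the deposited scale, and 0 with the receptor mean subtracted.

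Markers of other cells were also followed. The mean score of the 8 monocyte-derived macrophage markers ran from 0.33 to 2.60 in differentiated macrophages, from 1.09 to 3.43 in undifferentiated macrophages and from -2.39 to -0.828 in tumour microglia. The only measured T and NK cell marker of 5 and both measured B cell markers of 3 rose in each macrophage population, and 2 of 3 neuron markers did too. So did 1 of 2 glioma cell markers, while 2 of 4 astrocyte markers rose and 1 fell. Of 3 dendritic cell markers 2 rose in differentiated and 1 in undifferentiated macrophages, and of 3 oligodendrocyte markers 0 were called. Over all genes 37% and 36.7% rose. The neuron markers' mean score ran from -0.78 to 0.836 in differentiated macrophages, from -0.191 to 0.883 in undifferentiated macrophages and from -1.53 to 0.11 in tumour microglia. With the library medians subtracted 0 neuron markers were called in either macrophage population. With the receptor mean subtracted 0 of the T and NK cell, B cell and neuron markers were called in either. The centred scores do not show which of these markers were absent, and their part in the Trim results was not tested.

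Between differentiated and undifferentiated macrophages no Trim member was called by limma, and none of the 54 reached an unadjusted p below 0.05. Over all genes 0% were called higher and 0.0114% lower, and 2.79% had an unadjusted p below 0.05. The members' median difference was -0.012. With library medians subtracted 1 member reached an unadjusted p below 0.05 and 0 were called. The share of this contrast left in the table, 67.6%, was the smallest of the 4 comparisons.

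Recipient strain could be examined only as a change in a population difference, Pep3 minus WT. For tumour microglia against normal microglia this was called for 3 members, where 5.03% of all genes were called: Trim43b at -6.70 ± 1.33 (adjusted p = 0.0119), Trim42 at -4.80 ± 1.40 and Trim75 at -4.59 ± 1.34 (adjusted p = 0.0476 each). The deposited means of Trim43b were -1.57 ± 0.41 in tumour microglia and 0.0963 ± 0.724 in normal microglia of Pep3 mice, and -0.529 ± 1.46 and -1.12 ± 1.66 in WT mice (SD, n = 4 each). The deposited means of Trim43b thus ran in opposite directions in the strains, and by less than the fitted value. For Trim42 and Trim75 the deposited means also changed by less than the fitted values, and were lower in tumour microglia in both strains. In Pep3 mice Trim42 ran from -2.23 to -1.09 in tumour microglia and from -0.253 to 0.453 in normal microglia. In WT mice it ran from -2.35 to 0.409 and from -2.89 to 0.706. In the other 3 comparisons 0 members were called by limma, and 9, 9 and 0 had an unadjusted p below 0.05.

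**Figure D4:**
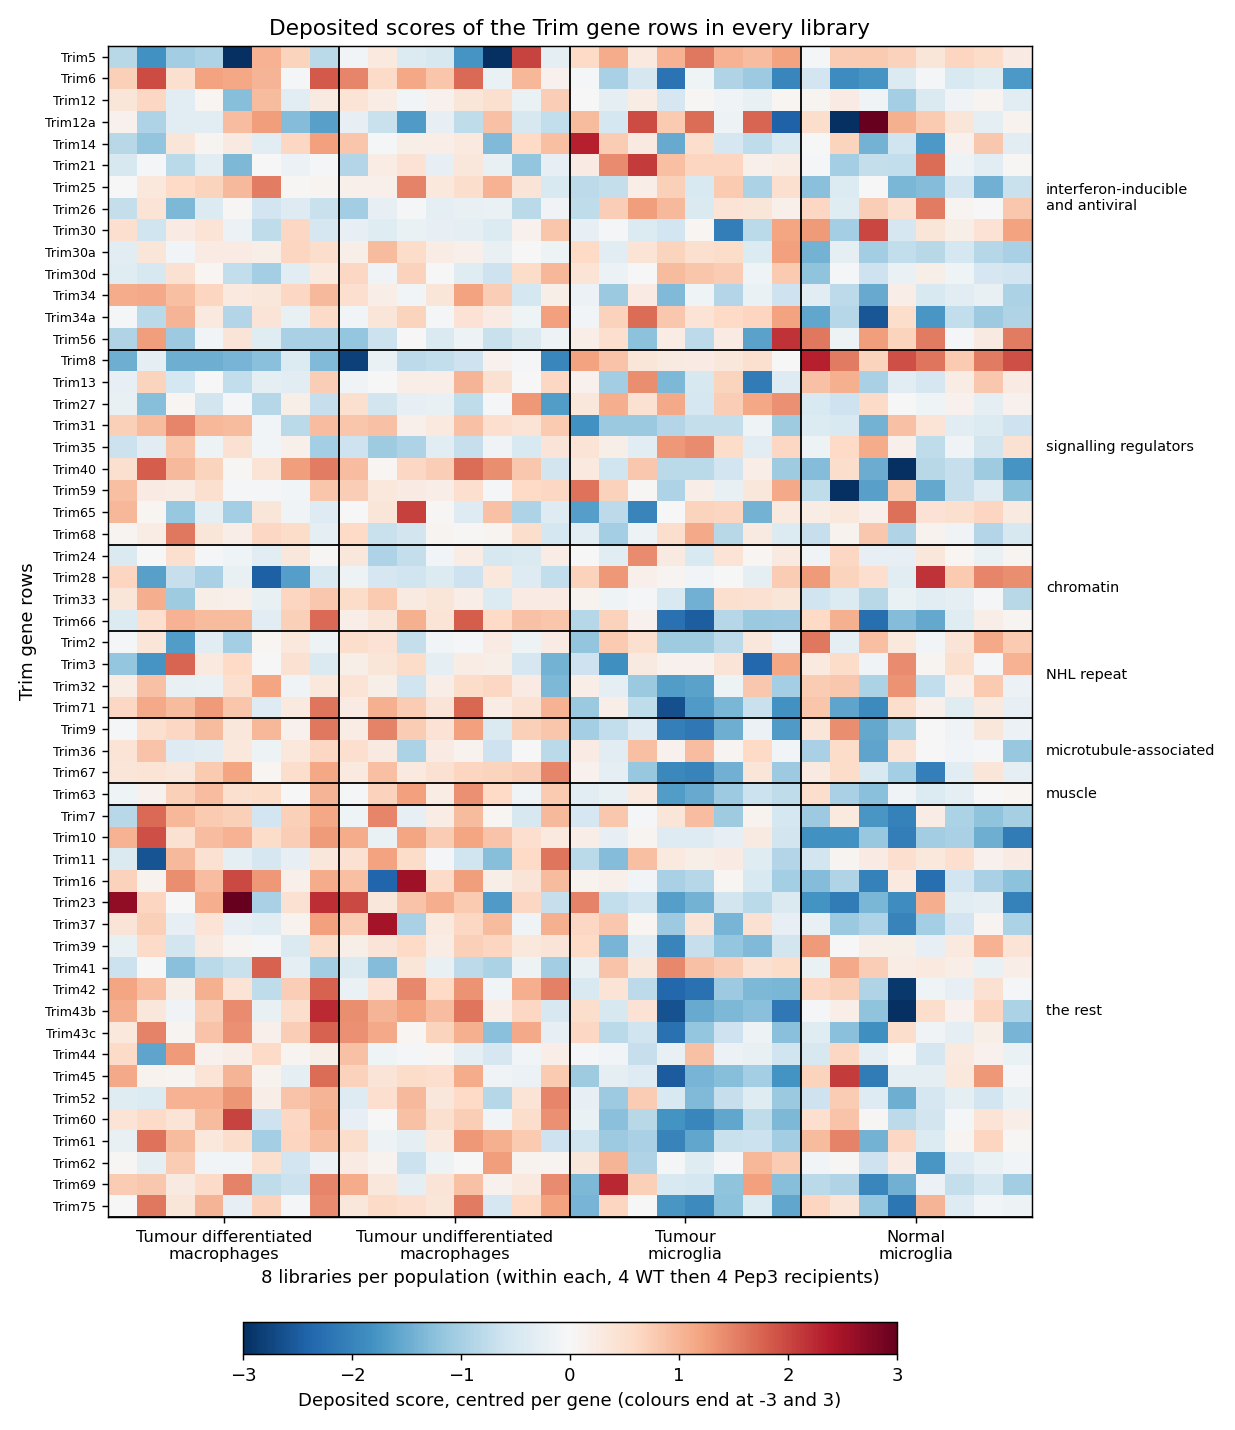
Deposited score of each Trim row (vertical, grouped by role) in each of the 32 libraries (horizontal, 8 per population, 4 WT then 4 Pep3), blue below and red above the gene's mean of 0, with colours ending at -3 and 3. Tumour microglia libraries were mostly red in the antiviral rows Trim5, Trim21 and Trim30a and mostly blue in the antiviral rows Trim6, Trim30 and Trim34. They were also mostly blue in rows of other groups such as Trim60 and Trim71. Normal microglia libraries were mostly red in Trim5 as well.

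TRIM proteins whose symbol does not start with Trim were measured too. Mefv, which encodes the inflammasome protein pyrin, rose by 4.16 ± 0.53 in differentiated and by 5.36 ± 0.55 in undifferentiated macrophages against tumour microglia. The microtubule-binding ligases Mid1 and Mid2 rose by 1.95 ± 0.46 and 0.97 ± 0.36 in differentiated and by 2.05 ± 0.48 and 1.20 ± 0.38 in undifferentiated macrophages. The nuclear body gene Pml rose by 1.15 ± 0.38 in tumour microglia against normal microglia (adjusted p = 0.0424). With the medians subtracted, Mid2 was no longer called in either population. With the receptor mean subtracted, 1 of these 4 genes was called higher and 1 lower in each. The highest differences were then 2.73 and 3.85, those of Mefv, so Mefv kept its call and Mid1 did not.

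Genes that TRIM ligases act with in the interferon pathway were examined beside the members in tumour microglia against normal microglia. Of 16 genes of RIG-I-like receptor and interferon signalling, 6 rose and 0 fell, among them the transcription factors Irf7 (3.08 ± 0.45) and Irf9 (1.37 ± 0.38), the RNA helicase Dhx58 (2.88 ± 0.36) and the kinase Ikbke (2.77 ± 0.49). Over all genes 4.66% rose and 12% fell in this comparison. Of 5 genes for conjugation of ISG15, a ubiquitin-like modifier, 4 rose: Isg15 by 3.36 ± 0.42, its protease Usp18 by 2.65 ± 0.53, the conjugating enzyme Ube2l6 by 2.06 ± 0.63 and the ligase Herc6 by 1.41 ± 0.43. In differentiated macrophages against tumour microglia 0 of the 16 rose and 2 fell, the kinase Tbk1 by 1.45 ± 0.53 and the STING gene Tmem173 by 1.5 ± 0.37. In undifferentiated macrophages Ikbke rose by 1.67 ± 0.53 and Traf3 by 1.44 ± 0.46, and Tmem173 fell by 1.32 ± 0.38. On the deposited scale none of the ISG15 genes was called in either macrophage comparison. Of all genes 37% rose and 6.35% fell in differentiated macrophages on this scale, and 36.7% and 5.19% in undifferentiated macrophages. These counts moved with the scaling. In differentiated macrophages 0 of the 16 rose and 7 fell with medians subtracted and 0 rose and 11 fell with the receptor mean subtracted, and of the 5 ISG15 genes 1 and 4 fell. Of all genes 19.8% rose and 19.2% fell under the first of these scalings, and 3.85% and 38.6% under the second. In undifferentiated macrophages 0 of the 16 rose and 5 fell, and 0 rose and 11 fell, so the calls of Ikbke and Traf3 were lost, and of the 5 ISG15 genes 0 and 2 fell. Of all genes 16.7% rose and 16.3% fell there, and 2.66% and 36.8%. In tumour microglia against normal microglia 9 of the 16 rose and 0 fell under both of these scalings, and 4 of the 5 ISG15 genes rose. Of all genes 7.72% rose and 7.6% fell with medians subtracted, and 11% and 2.96% with the receptor mean subtracted.

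In all, 32 of the 54 members were called in at least 1 comparison and 22 in none. Of the 22, Trim12, Trim12a, Trim14, Trim25, Trim26, Trim30 and Trim56 were antiviral, Trim13, Trim65 and Trim68 signalling regulators, Trim24 and Trim33 chromatin members, Trim2, Trim3 and Trim32 NHL-repeat members, and Trim36 microtubule-associated. The other 6 were Trim7, Trim11, Trim37, Trim44, Trim62 and Trim69. The differences of these 22 ran from -1.02 to 0.97 over the 4 comparisons, the lowest for Trim12a and the highest for Trim13.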

How the data were processed

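RNA of 32 sorted cell libraries, 8 per population, had been made into cDNA with a Clontech SMART-Seq v4 low-input kit, per the labels' protocols. Per the submitters' processing notes, FastQC, STAR 2.5.0a, RSEM 1.3.0 and genome build mm9 were used. The authors deposited 1 table of signed scores, from -6.50 to 6.92, for 17586 genes, and its normalisation is not given in the sources used here. Every gene has a mean of 0 over all libraries and within each recipient strain, and 11 sample directions carry no variation, which include the overall mean and the strain difference. A strain difference within 1 population could therefore not be estimated, and no count test, pseudocount, level filter or depth interval applies.

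All genes were fitted with limma 3.58.1 (R 4.3.3): a mean per population and recipient, terms for the empty directions, robust empirical Bayes variances, 15 residual degrees of freedom, two-sided tests and adjustment by Benjamini-Hochberg over all genes. The percent of each contrast left after the empty directions was 96.7 (tumour against normal microglia), 91.9 (differentiated macrophages against tumour microglia), 85.4 (undifferentiated macrophages against tumour microglia) and 67.6 (differentiated against undifferentiated macrophages). The fit was tested on simulated data. The Trim members, role groups, other gene lists and tests were chosen with earlier results of these data known. Members called in any comparison are named with their difference, and library values are given for the largest called differences and for Trim21, Trim25, Trim28, Trim30a, Trim34a and Trim59. A few more ranges, those of Trim8 and Trim10, were added after their values were seen. Rows were matched to RefSeq genes of GRCm38.p6 by symbol (51) or older symbol (3), and 40 Trim genes had a promoter window. In 74% of windows the first transcribed bases were found in a GENCODE transcript of the gene. Alternatives were library medians or the olfactory receptor mean subtracted, no terms for the empty directions, no robust option, library weights, fits to fewer libraries, to 1 recipient strain or to the populations compared, deposited means within experiments 3 and 4, and a block of consecutive library numbers. Values of some genes of the interferon list are not reported here.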

Additional observations from a re-analysis of the deposited data

Results flagged for a closer look

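Among 56 groups of 8 libraries examined for a library far from the rest (14 Trim genes in 4 populations), 4 had one, and chance flags about 1 in 20 such groups. In tumour microglia, Trim23 stood at 1.48 in library 3, with the next library at -0.428. In normal microglia, Trim21 stood at 1.66 in library 2, with the next at 0.0376. Normal microglia library 25 stood low for Trim42, at -2.89 with the next at -0.898, and for Trim43b, at -3.43 with the next at -1.21.

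Effects that differed between recipient strains by a test of the difference itself were seen for 3 of the 54 members in tumour microglia against normal microglia. Over all genes 5.03% were called in this test. The difference in Pep3 mice minus that in WT mice was -6.70 for Trim43b, -4.80 for Trim42 and -4.59 for Trim75. For all 3 the deposited means differed by less than these fitted values, as described above. WT normal microglia include library 25, the low one for Trim42 and Trim43b, and its part in these differences was not tested.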

How the results depend on the processing

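Counts of members called higher and lower are given in the order tumour against normal microglia (4 and 5 as reported), differentiated macrophages against tumour microglia (21 and 7) and undifferentiated macrophages against tumour microglia (17 and 4). Leaving out the terms for the empty directions or the robust option kept each count within 1.5 times. With library medians subtracted, the counts became 5 and 3, 10 and 12, and 9 and 12. With the olfactory receptor mean subtracted they became 9 and 0, 0 and 23, and 0 and 20. With library weights the lower counts were 1, 3 and 2, and over all genes 745, 6482 and 6435 were called in either direction. Fits to only the populations compared gave 1 and 1, 0 and 0, and 0 and 0, with 18, 20 and 10 members at an unadjusted p below 0.05. Calls over all genes dropped in these fits too, to 473, 55 and 9 in either direction. In the full fit 820 genes were called higher and 2116 lower, 6510 and 1116, and 6448 and 913. The loss was thus not particular to the Trim genes. Without the 9 libraries that kept under 50% of their own variation, limma called 0 members in each comparison with the terms for the empty directions (6 residual degrees of freedom; 5, 8 and 11 members at an unadjusted p below 0.05), and without these terms 0 and 0, 13 and 4, and 13 and 3. In WT recipients alone and in Pep3 recipients alone, each with 3 residual degrees of freedom, limma called 0 members in each comparison, with 10, 5 and 6 and with 11, 7 and 9 at an unadjusted p below 0.05. These subsets hold fewer libraries, and their counts over all genes are not reported here. The cause of the other changes was not tested. Without 1 library the counts ran from 0 to 5 and 0 to 8, from 11 to 21 and 2 to 7, and from 13 to 18 and 1 to 5. Between the macrophage populations 0 members were called by limma under each alternative, with at most 4 at an unadjusted p below 0.05.

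Some single genes changed sign. In tumour against normal microglia, WT recipients alone gave -0.0948 for Trim30a, 1.75 for Trim28, 0.231 for Trim26 and 0.537 for Trim2, and Pep3 recipients alone gave -0.493 for Trim10, -0.426 for Trim21 and -5.09 for Trim12a. For Trim30a and Trim10 the deposited scores of these recipients ran the other way, as given above. Without the 9 libraries, with the terms, Trim12a was -0.739 and Trim2 0.0834. Trim26 was 0.011 with medians and 0.302 with the receptor mean subtracted. Without 1 library, Trim12a ran from -0.574 to 0.871, Trim26 from -0.894 to 0.253 and Trim2 from -1.30 to 0.131. In differentiated macrophages against tumour microglia, the receptor mean subtracted gave -0.196 for Trim10, -0.047 for Trim34, -0.505 for Trim39, -0.0524 for Trim40, -0.0601 for Trim52 and -0.0529 for Trim63. Without the 9 libraries, with the terms, Trim23 was -0.402, Trim39 -1.05 and Trim43c -0.376. WT recipients alone gave -0.39 for Trim39, -1.29 for Trim40, -0.704 for Trim43b, -0.672 for Trim52 and 0.619 for Trim34a, Pep3 recipients alone 0.105 for Trim28, and experiment 4 alone 0.052 for Trim30a. The deposited means of Trim39, Trim40, Trim43b and Trim52 in WT recipients were nonetheless higher in differentiated macrophages. In undifferentiated macrophages against tumour microglia, the receptor mean subtracted gave -0.538 for Trim10, -0.18 for Trim43c and -0.309 for Trim52. WT recipients alone gave -1.69 for Trim42, -2.11 for Trim43b, -0.0292 for Trim45, -2.02 for Trim52, -0.82 for Trim60, -0.235 for Trim75 and 0.914 for Trim34a. The deposited means of Trim42, Trim43b, Trim45, Trim52, Trim60 and Trim75 in WT recipients were nonetheless higher in undifferentiated macrophages. Trim43c was -0.116 in the populations compared alone and -0.254 without the 9 libraries, Trim30a was 0.00593 within experiment 3, and Trim34a ran from -0.644 to 0.134 without 1 library. The unknown depth leaves the precision of low genes unassessed. Library numbers run from 1 to 32 with none shared between populations, and the labels do not tie libraries to an animal. Tumour libraries of 1 graft direction come in 8 runs of 3 consecutive numbers. With these runs as a replicate block (9 residual degrees of freedom), chosen after seeing the data, the counts were 4 and 5, 18 and 6, and 16 and 4. Deviations of libraries in the same run correlated from -0.647 to 0.312 (median 0.0166), so the numbers are not taken as pairs.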
